A study of Drosophila melanogaster with 3 samples.

Results

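The 10 genes of the Drosophila Polycomb repressive complexes were taken by name from the dm6 annotation, out of 17947 annotated genes, and examined for binding of CG1602, a zinc finger protein. Of these, ph-p, ph-d, Pc, Psc, Su(z)2, Sce and Scm (7 genes) encode PRC1 proteins and E(z), Su(z)12 and esc (3 genes) encode PRC2 proteins; Scm is a looser partner of PRC1. The data are 3 biological replicates of ChIP-seq, in 1 group with no second condition. Each was made from whole embryos of both sexes, aged 0 to 24 h, of 1 transgenic line that stably expresses CG1602 with green fluorescent protein (GFP) at its C terminus, precipitated through the GFP tag. The labels do not say which promoter drives the fusion, and the embryos mix many cell types and stages, so a region says nothing of the cells in which it was bound.

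Polycomb group proteins keep developmental genes, such as the Hox genes, silent in cells where they were not switched on. PRC2 places a repressive methyl mark on histone tails through its methyltransferase E(z), which works together with Su(z)12 and the WD-repeat protein esc. PRC1 recognises that mark through the chromodomain of Pc, carries the RING finger proteins Psc, Su(z)2 and Sce, of which Sce is the ubiquitin ligase for a histone tail, and clusters through the Polyhomeotic proteins encoded by ph-p and ph-d.

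A region was assigned to a gene when its summit lay inside the gene or within 2 kb of one of its annotated transcription start sites (TSS). The authors' list thresholded by irreproducible discovery rate (IDR) held 4599 regions, the pooled list 16640, and the lists of replicates 1, 2 and 3 held 17580, 27164 and 18386, background included. The files do not state the scale of the signal, so a value was read only against others of the same list, and rank 1 is the strongest. Read depth is unknown here. The IDR list equals the 4599 strongest pooled regions, so a rank in it is also the pooled rank.

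All 3 PRC2 genes and 3 of the 7 PRC1 genes held an IDR region, 6 of 10 in all. By the same rule 27.8% of all annotated genes held one, 30.3% of protein-coding genes, and 33.3% of protein-coding genes within the length range of the 10. These 6 genes held 13 IDR regions, 9 at PRC1 genes (4 at ph-p, 3 at ph-d, 2 at Psc) and 4 at PRC2 genes (1 at E(z), 2 at Su(z)12, 1 at esc). Pc, Su(z)2, Sce and Scm held none. Among protein-coding genes 8.23% had at least 2 IDR regions, 2.62% at least 3 and 1.28% at least 4, and longer genes have more room for them. With 10 genes chosen by name, these counts carry no test.

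**Figure D1:**
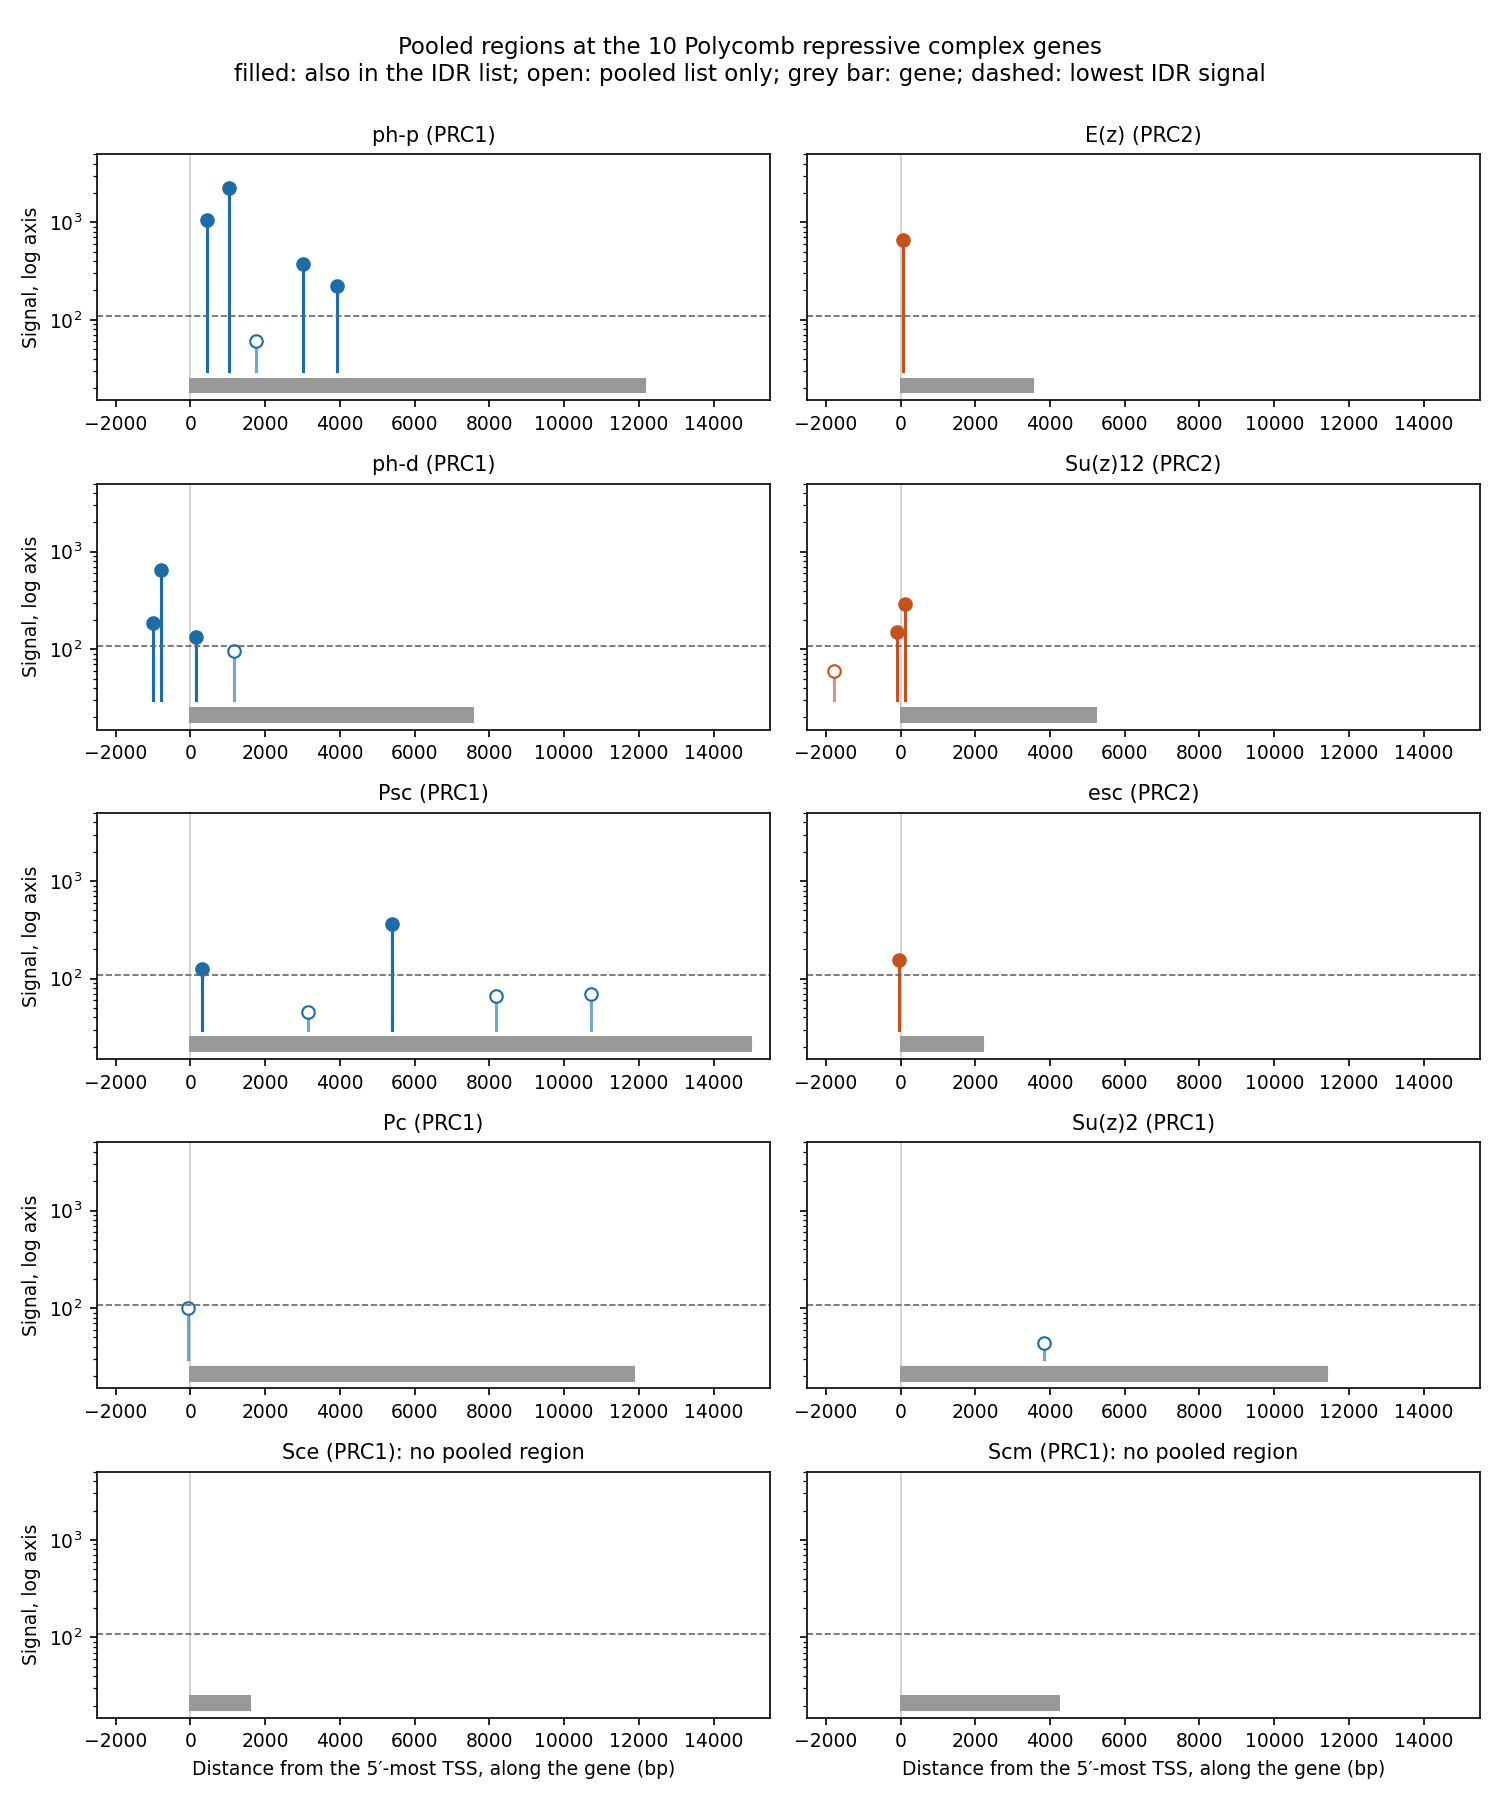
Pooled regions at each of the 10 genes, as signal (vertical, log axis) against distance in bp from the 5′-most TSS along the gene (horizontal). Filled points are also in the IDR list, open points are in the pooled list only, the grey bar is the gene and the dashed line the lowest IDR signal of 108.2; PRC2 regions in the IDR list stand at the gene start, while the strongest ones of ph-p, ph-d and Psc stand away from it.

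The strongest region at any of the 10 genes lay at ph-p (FBgn0004861, X:2126210-2138371, minus strand), the proximal of the tandem Polyhomeotic genes. Its leading region (X:2137176-2137552) had an IDR signal of 2240, rank 8 of 4599. Its signal was 877.7 in replicate 1 (rank 6), 434.1 in replicate 2 (rank 10) and 1002 in replicate 3 (rank 6). The rank was thus 10 or better in every replicate, and the replicate summits lay within 8 bp of each other. The summit was in an intron, 1038 bp downstream of the first annotated TSS and 478 bp upstream of the second of 3. A neighbouring region in the 5′ UTR, 431 bp downstream of the first TSS, had an IDR signal of 1053 (rank 66) and ranks of 58, 59 and 65 in replicates 1, 2 and 3. Weaker intronic regions followed, 1250 bp (signal 369.8, rank 738) and 2167 bp (signal 219.7, rank 1810) downstream of the third TSS. The former ranked 837, 873 and 648 in replicates 1, 2 and 3, and the latter 1535, 2666 and 1948. All 4 lay among the stronger 2299 IDR regions.

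At ph-d (FBgn0004860, X:2115727-2123286, minus strand), the distal partner gene, the leading region (X:2123910-2124195) lay outside the gene, 780 bp upstream of its first TSS, in the sequence between ph-d and ph-p. It had an IDR signal of 641.9 (rank 228). Its signal was 227.6 in replicate 1 (rank 223), 134 in replicate 2 (rank 290) and 274.1 in replicate 3 (rank 231), so its rank moved little. A second region 992 bp upstream (IDR signal 185, rank 2341) ranked 2283, 972 and 2209 in replicates 1, 2 and 3. The last, in the 5′ UTR 143 bp downstream of the TSS (IDR signal 132.3, rank 3600), ranked 2291, 8493 and 3725. In replicate 2 the last one fell outside the 4599 strongest regions, the number of regions in the IDR list. The leading regions of ph-p and ph-d differed by 1.95, 1.70 and 1.87 on the log2 scale in replicates 1, 2 and 3, a mean of 1.84 ± 0.13 (SD, n = 3), or 3.58-fold higher at ph-p.

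The order at these duplicated genes was compared with their sequence. The alignment (blastn) joined 61.1% of the 7560 bp of ph-d to ph-p in blocks, the longest of 4480 bp at 92.0% identity in the gene bodies, and 46.9% of the 12162 bp of ph-p to ph-d. A series of 3 further blocks, of 358 bp (81.0% identity), 387 bp (70.5%) and 529 bp (90.7%), joined the 5′ part of ph-p to the upstream sequence and start of ph-d. The leading ph-p summit lay in a gap between the last 2 of these, which spans 208 bp in ph-p and only 15 bp in ph-d. No IDR region of ph-d had its summit in that 15 bp. The segment of 208 bp had no other match on the chromosome arms at a blastn E-value of 1e-05 or less. The gap between the blocks of 358 bp and 387 bp was 98 bp long in ph-p and 209 bp long in ph-d. It held the second ph-p summit (rank 66) and the leading ph-d summit (rank 228), but near opposite edges. The ph-p summit lay 14 bp from the block of 358 bp, and the ph-d summit 14 bp from that of 387 bp. These summits are thus not at matching positions. The longest other match of the ph-d region of rank 2341 (68 bp, 79.4% identity) was X:2137954-2138021, inside the ph-p region of rank 66. Of the 7 IDR summits at both genes, 1 lay inside an aligned block (ph-d, rank 2341, in the block of 81.0% identity). Whether sequence shared by both genes lowers the reads placed there was not tested.

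Both versions of the gap that holds the leading ph-p summit are shown because the leading summit lies in it. The gap was picked after the summits were seen, and whether its sequence bears on the binding was not tested. Sequences are from the RefSeq copy of dm6, on the minus strand along the genes, 5′ to 3′, with the unaligned bases in capitals and 20 aligned bases on each side in lower case. The ph-p stretch is X:2137245-2137492, its summit being base 140 of the capitals, and the ph-d stretch is X:2123677-2123731.
ph-p: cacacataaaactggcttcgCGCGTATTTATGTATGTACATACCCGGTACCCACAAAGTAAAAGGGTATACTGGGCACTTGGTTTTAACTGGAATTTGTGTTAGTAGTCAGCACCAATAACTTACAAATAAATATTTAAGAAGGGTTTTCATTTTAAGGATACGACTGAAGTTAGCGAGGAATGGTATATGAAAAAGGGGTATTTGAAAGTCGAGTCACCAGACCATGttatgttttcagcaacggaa
ph-d: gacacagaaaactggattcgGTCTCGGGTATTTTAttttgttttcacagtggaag

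**Figure D2:**
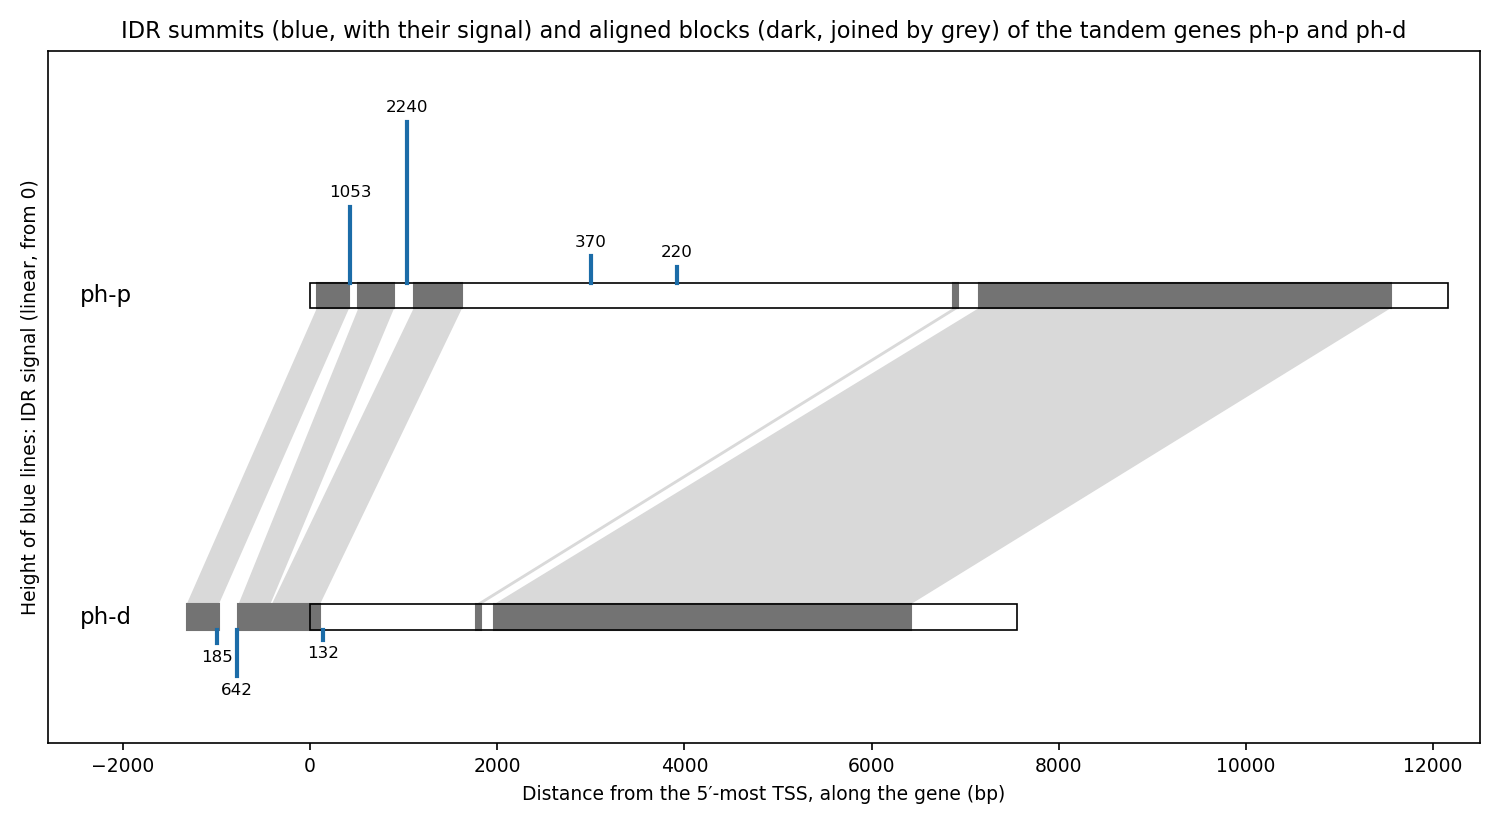
IDR summits (blue lines, height proportional to the signal printed beside each) at ph-p above and ph-d below, against distance in bp from the 5′-most TSS of each gene. Dark blocks joined by grey are the aligned sequence, boxes are the genes; the ph-p summit of signal 2240 stands in a gap of 208 bp that is 15 bp in ph-d.

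Psc (FBgn0005624, 2R:12965997-12980994, minus strand), a RING finger partner of Sce, held its leading region far inside the gene. This region (2R:12975487-12975657) had its summit in an intron 5067 bp downstream of the nearest TSS, with an IDR signal of 363.9 (rank 759). Its signal was 151.6 in replicate 1 (rank 528), 76.99 in replicate 2 (rank 980) and 134.6 in replicate 3 (rank 995), among the 1000 strongest regions each time. A weaker region at the gene start, 15 bp from a TSS (IDR signal 126.1, rank 3798), ranked 9125 in replicate 1, 2263 in replicate 2 and 4012 in replicate 3. The region at the start thus fell outside the strongest 4599 in replicate 1. Psc lies on the same arm as its paralog Su(z)2, which had no IDR region.

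The other PRC1 genes were at or below the end of the ranking. Pc (FBgn0003042, 3L:21306138-21318020), the chromodomain subunit, had 1 pooled region 70 bp upstream of its TSS, with a pooled signal of 100 (rank 5065), against 108.2 for the weakest IDR region. Its strongest region had a signal of 29.6 in replicate 1 (rank 5853), 15.7 in replicate 2 (rank 10702) and 53.9 in replicate 3 (rank 3799). It was among the 4599 strongest in replicate 3 only. Su(z)2 (2R:12996501-13007911) had a pooled region of rank 14604 in a coding exon, no region in replicate 1, and strongest regions of rank 13412 in replicate 2 and 15122 in replicate 3. Sce (3R:27680431-27682029) and Scm (3R:9633359-9637611), the latter a SAM domain protein, had 1 region each, in replicate 2 alone, of rank 24180 and 24752 among its 27164. By the same rule 57.4% of all genes had a pooled region and 57.4%, 70.0% and 60.7% had one in replicates 1, 2 and 3. Among the 10 genes 8 had a pooled region, and 7, 10 and 8 had one in the replicates, so a region in a whole list separates few genes. At Sce and Scm no enrichment was detectable in the pooled list.

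The PRC2 genes were bound at their starts. E(z) (FBgn0000629, 3L:10634575-10638130, minus strand), the methyltransferase, had its IDR region at 3L:10637873-10638213, with a signal of 665.3 (rank 214). Its signal was 280.7 in replicate 1 (rank 134), 132 in replicate 2 (rank 299) and 254.7 in replicate 3 (rank 269). The summit lay in the 5′ UTR, 54 bp downstream of the first TSS and 70 bp upstream of the TSS of Cnep1r2, which runs the other way from 16 bp away. The region can therefore belong to either promoter.

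Su(z)12 (FBgn0020887, 3L:19918242-19923462, minus strand), the subunit that E(z) needs for its activity, had an IDR region at 3L:19923147-19923562 with a signal of 293 (rank 1108). Its signal was 91.96 in replicate 1 (rank 1308), 60 in replicate 2 (rank 1481) and 137.3 in replicate 3 (rank 957). The summit lay in the 5′ UTR, 107 bp downstream of the TSS. A second, overlapping IDR region (signal 149.5, rank 3094) had its summit 94 bp upstream, between Su(z)12 and the divergent gene Pfdn6, whose TSS lies 209 bp away. It ranked 5751, 4703 and 2561 in replicates 1, 2 and 3, and so was among the strongest 4599 in replicate 3 only.

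The region of esc (FBgn0000588, 2L:11827204-11829405, minus strand), a subunit supplied early in embryonic life, was the weakest of the PRC2 set. It lay at 2L:11829247-11829662, with its summit 50 bp upstream of the only TSS and an IDR signal of 155.4 (rank 2922). Its signal was 42.8 in replicate 1 (rank 3778), 42.95 in replicate 2 (rank 2540) and 63 in replicate 3 (rank 3088), so it was among the strongest 4599 each time. The upstream sequence around the leading summits of ph-d and esc, outside exons, is shown as well. Neither stretch is an aligned counterpart of the ph-p stretch above. The sequences are in dm6 on the minus strand, X:2124016-2124116 and 2L:11829406-11829505, with the summit base in capitals. The GC content of these stretches was 37.6% in the former and 51.0% in the latter.
ph-d: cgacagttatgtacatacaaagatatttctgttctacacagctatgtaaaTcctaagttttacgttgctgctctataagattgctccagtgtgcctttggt
esc: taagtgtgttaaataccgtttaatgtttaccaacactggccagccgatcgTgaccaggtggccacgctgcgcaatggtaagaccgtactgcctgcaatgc

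PRC1 and PRC2 genes were then compared by the strongest region of each gene in each replicate list. On a log2 scale relative to the region of rank 4599 in the same list, ph-p stood at 4.32 ± 0.34 (SD, n = 3), E(z) at 2.55 ± 0.37, ph-d at 2.49 ± 0.21, Psc at 1.68 ± 0.33, Su(z)12 at 1.33 ± 0.24, esc at 0.43 ± 0.18 and Pc at -0.31 ± 0.53. ph-p was above every other gene in all 3 replicates, by 1.78 ± 0.17 (SD, n = 3) over E(z), or 3.43-fold. E(z) and ph-d, next in the order, were not separated: their difference was 0.30, -0.02 and -0.11 in replicates 1, 2 and 3, less than its spread (0.06 ± 0.22). The difference of Psc and Su(z)12 (0.35 ± 0.37) was also within its spread. By contrast, ph-d was above Psc (0.80 ± 0.22), Su(z)12 above esc (0.90 ± 0.36) and esc above Pc (0.74 ± 0.64) in 3 of 3 replicates. The smallest p that an exact two-sided sign-flip test over 3 replicates can give is 0.25, so the differences are given with their spread only.

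The 7 PRC1 genes spanned a wider range than the 3 PRC2 genes, and a range tends to widen with the number of genes. Of the PRC1 genes, ph-p was above all 3 PRC2 genes. Pc, Su(z)2, Sce and Scm were below all 3 in every list where they had a region. A difference of medians therefore depended on the genes with no region. With these left out, PRC1 minus PRC2 was 1.01 in replicate 1 (4 PRC1 genes), -1.93 in replicate 2 (7 genes) and -0.03 in replicate 3 (5 genes), a mean of -0.32 ± 1.49 on the log2 scale (SD, n = 3). With such genes placed at the lowest signal of the list, a choice made after seeing the data, it was -1.64, -1.93 and -1.35, a mean of -1.64 ± 0.29. In each replicate the PRC1 median was then the value of Pc and the PRC2 median that of Su(z)12. The value is thus the difference of this single pair of genes, and its SD is the spread of that pair over replicates, not over the genes of a complex. Leaving out genes with no region keeps only the stronger PRC1 genes, most of all in replicate 1.

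**Figure D3:**
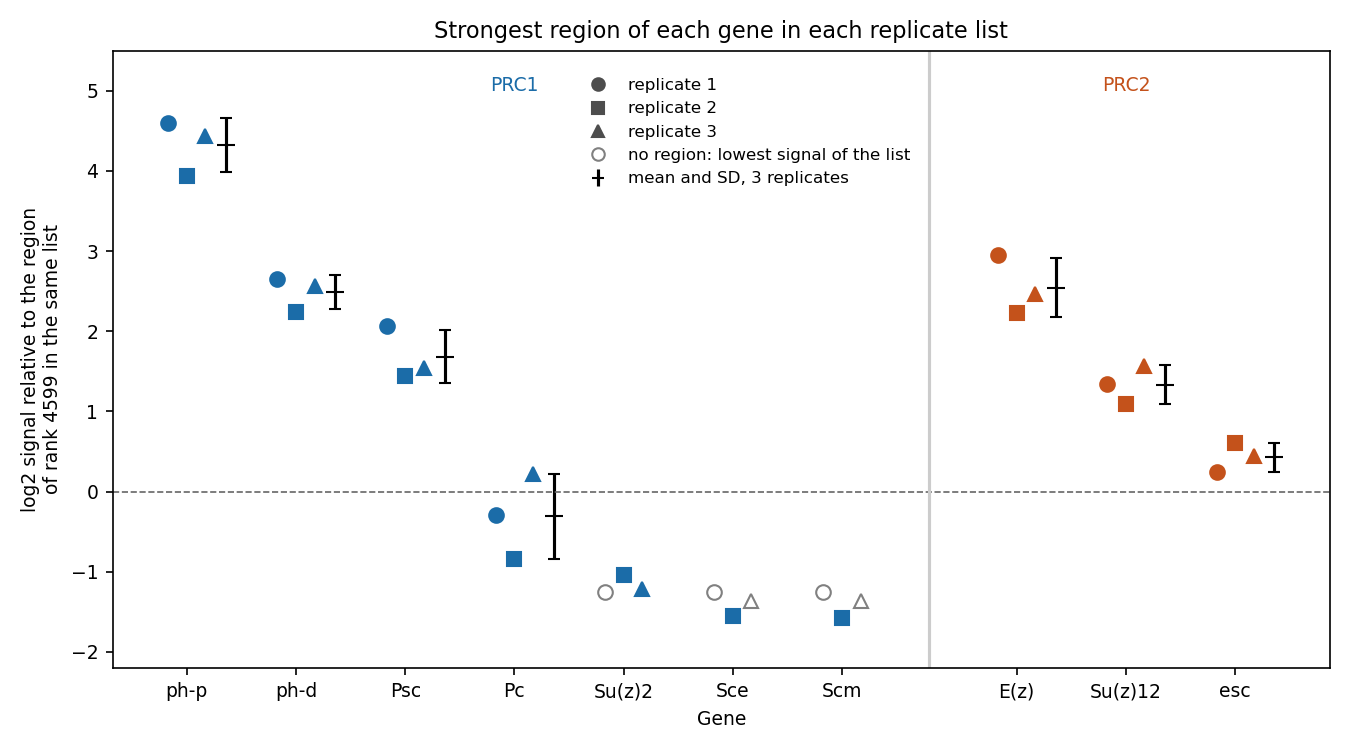
Signal of the strongest region of each gene in replicates 1 to 3 (circle, square, triangle), as log2 relative to the region of rank 4599 in the same list (vertical; dashed line at 0). Open symbols mark a gene with no region, drawn at the lowest signal of that list, and bars give the mean and SD over 3 replicates; ph-p lies highest at a mean of 4.32, and 4 PRC1 genes lie near or below 0.

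Among the 6 genes with an IDR region, the summit of the strongest one lay 50 to 107 bp from a TSS in the PRC2 genes, and 478, 780 and 5067 bp from the nearest TSS of the gene in ph-p, ph-d and Psc. This did not hold for all PRC1 genes. The strongest region of Pc lay 46 to 70 bp from its TSS in the pooled list and the 3 replicate lists. The weak regions of Sce and Scm in replicate 2 lay 138 and 44 bp from theirs, whereas that of Su(z)2 in the pooled list lay 3206 bp away. These last 3 ranked 24180 and 24752 of 27164, and 14604 of 16640, in lists that include background. Their positions may therefore not be those of binding. A difference in position between the complexes was not tested. Of the 10 genes, 6 had an IDR region whose summit was no more than 500 bp from a TSS, the same 6 that held any. The share was 17.1% of all genes, 20.4% of protein-coding genes and 25.0% of those within the same length range. These shares count genes with no IDR region. Of the 4991 annotated genes that held one by the assignment rule, 3075 had a summit this near to a TSS. By region, all 4 PRC2 regions and 4 of the 9 PRC1 regions had a summit within 500 bp of a TSS, against 49.5% of all IDR regions by their nearest TSS. By annotation, 5 of the 13 summits lay in a 5′ UTR, 4 in an intron and 4 outside the gene.

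The sequence within 100 bp of the 13 summits was varied. GC content ran from 24.9% at the second ph-p summit to 48.8% at esc, against 34.0% ± 6.31 over all IDR summits (SD, n = 4599 regions). It was lower than in both windows 1000 bp away at 6 of 13 summits, among them the leading ones of ph-p, Psc and Su(z)12, and higher than both at 3, among them the leading one of ph-d (34.8%). Over all IDR summits 63.3% were lower than both. Motifs were searched on both strands. The DNA replication-related element TATCGATA was in 0 of 13 windows (3.33% of IDR windows, 6.26% of windows at gene starts) and Motif 1, a core promoter element, in 0 (1.07% and 3.09%). GCCAT, the core of the site of Pho, the protein that tethers Polycomb complexes to DNA, was in 3 windows (24.8% and 31.7%), at ph-p (rank 1810), Psc (rank 759) and Su(z)12 (rank 3094). GAGAG, the core of the GAGA factor site, was in 4 (19.7% and 22.3%), at ph-p (rank 1810), E(z) and both Psc regions. The word CACTGAGA was in 1 (4.09% and 0.646%), at the intronic Psc region, where it shares bases with GAGAG. With 13 windows these shares are a description.

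The regions most like that of ph-p in their replicate ranks, among IDR regions outside the 10 genes, lay at Tcs5 (ranks 4, 11 and 5 in replicates 1, 2 and 3), Art3 (5, 5 and 8) and Ugalt (7, 7 and 3). Their mean absolute difference of log2 rank from the ph-p region over 3 lists was 0.33, 0.56 and 0.58. These 3 lay 105, 119 and 43 bp upstream of the nearest TSS, and the ph-p summit 478 bp upstream of its nearest TSS. The ph-p summit was in an intron of the gene, and the place of the other 3 by annotation was not determined.

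Of 22 other Polycomb group genes, 15 held an IDR region and 10 had one within 500 bp of a TSS, beside 27.8% and 17.1% of all genes. The count of 15 depended on the settings and was 9 without replicate 3, and 10 when each region was given only to the gene of its nearest TSS. Of the 22 genes, 3 are longer than Psc, the longest of the 10 (14998 bp): jing (119787 bp), psq (59393 bp) and sxc (22268 bp). The strongest was Trl, which encodes GAGA factor, with an intronic region 1536 bp downstream of a TSS (IDR signal 1357, rank 32; ranks 36, 28 and 29 in replicates 1, 2 and 3) among 4 regions. phol, the paralog of pho, had a region of signal 1027 (rank 73), but its summit lay 1516 bp upstream and 115 bp from the TSS of CG3552. All 3 genes of the Pho complex were on the list, with Sfmbt, which encodes the methyl-lysine binding partner of Pho, at signal 358.6 (149 bp upstream) and pho at 120.9 (291 bp upstream).

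Kdm2, Dsp1, jing, calypso (annotated as caly), psq, E(Pc) and l(3)73Ah completed the 10 strongest, with IDR signals of 516.5, 476.1, 284.9, 273.1, 237.8, 216.4 and 153.9. Of these, Kdm2, a histone demethylase gene, held 5 IDR regions, led by one 4226 bp into the gene. The leading region of calypso, the histone deubiquitinase of the PR-DUB complex, lay nearer to CG42837 (174 bp) than to its own TSS (535 bp). Those of Dsp1 and jing were also nearer to another gene. For Dsp1 it was 612 bp from a TSS of CG9921 and 624 bp from its own. For jing it was 5651 bp from a TSS of CG15233 and 15160 bp from its own. The 5 with weaker IDR regions included Caf1-55, the histone-binding PRC2 subunit, whose region ranked 4597 of 4599, and 10947 in replicate 1. Its summit lay 120 bp from a TSS of CG31344 and 127 bp from that of Caf1-55. The remaining 7 genes, among them the esc paralog escl and the PRC2 partners Pcl and Jarid2, held none.

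**Figure D4:**
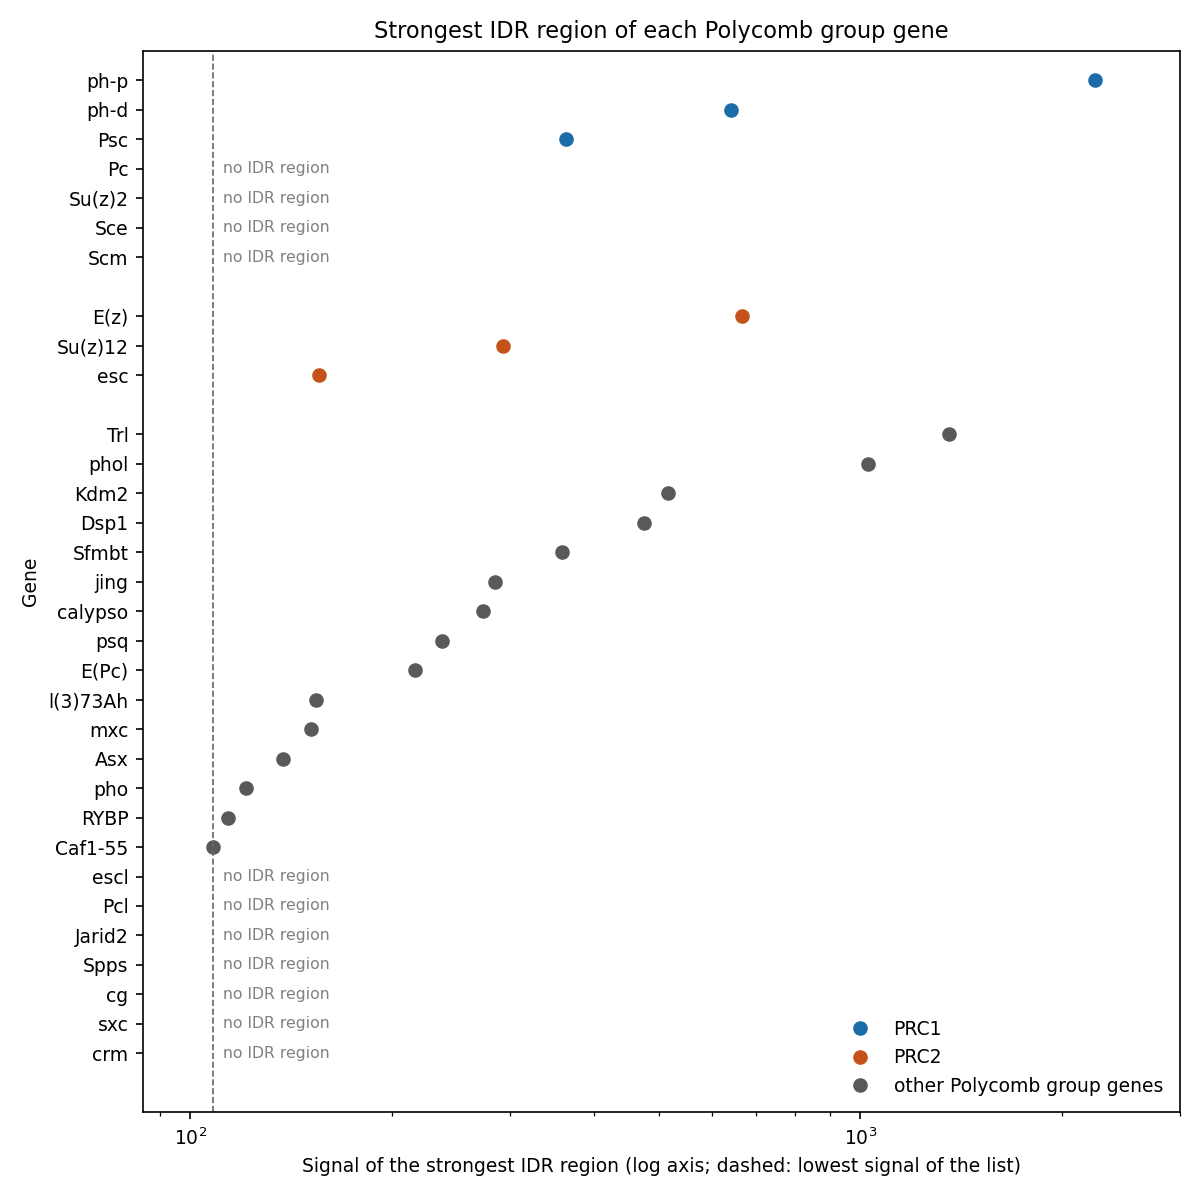
IDR signal of the strongest region (horizontal, log axis) for the 10 complex genes and 22 other Polycomb group genes (vertical), with the lowest signal of the list, 108.2, as a dashed line. Points are the authors' values from all 3 replicates together; Trl at 1357 and phol at 1027 lie between ph-p at 2240 and E(z) at 665.3, and 11 of the 32 genes have no IDR region.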

How the data were processed

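The authors deposited region lists for dm6 and dm3. Per the file headers, 1 control served all 3 replicates. Each replicate list used it with the reads of that replicate, and the pooled list with the reads of all. The IDR list was derived from these lists. The signal in the deposited lists is on a scale that is not stated. The sources used here name no aligner, caller, version or IDR threshold. Shearing was to a size range of 200 to 800, per the labels. The dm3 lists were not analysed here, since no coordinate was converted.

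Regions of each list were ranked by signal. Genes and TSS came from Ensembl release 115 (dm6 coordinates), without pseudogenes and transposable elements, and sequence from the RefSeq copy of dm6, within whose arms all regions lay. An IDR region was followed into a replicate list through the overlapping region (at least 1 bp) with the closest summit. Differences of log2 signal were taken within a list. The other Polycomb group genes were matched by symbol (21) or older symbol (1). The named genes were all members, up to 10 other Polycomb group genes with the strongest IDR region, the nearest and divergent genes of a region, and those most like ph-p in rank; the genes given for lists of 5 or fewer, and the sequence comparison of ph-p and ph-d, were chosen after their values were seen. Members and lists were chosen with earlier results of these data known. For ph-p and ph-d, blastn ran with an E-value limit of 1e-10. Sequence in exons or on arm 2R is not shown. Python 3.11.15, numpy 2.4.6, pandas 2.3.3, matplotlib 3.10.9 and BLAST 2.17.0 were used. The assignment was tested on simulated data. Alternatives covered the window, the assignment, stricter and wider lists, the members included and setting aside each replicate. For log2 differences its list was left out, and for counts the IDR regions were filtered through both other lists.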

Additional observations from a re-analysis of the deposited data

How the results depend on the processing

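The 3 replicates form 1 group, so no replicate block between groups could be fitted; differences between genes were taken within each replicate. The count of 6 genes with an IDR region ranged from 5 to 8 over the alternatives and stayed at 6 without any 1 replicate. Regions within 5 kb of a TSS, and the whole pooled list, raised the PRC1 count from 3 to 5. The PRC2 count was 3 except among the 2299 strongest IDR regions, where esc dropped out. The count of genes with a summit within 500 bp of a TSS fell from 6 to 3 among those 2299. It was 4 to 5 with 1 replicate set aside. Among the 22 other genes the count fell from 15 to 9 among those 2299 and among regions held by all 3 replicates. It ranged from 9 to 12 with 1 replicate set aside, with 9 for regions held by replicates 1 and 2. It was 10 with each region given to its nearest TSS only. The difference of ph-p and E(z) ranged from 1.68 to 1.85 on the log2 scale without 1 replicate and was 1.75 in the pooled list. The difference of PRC1 and PRC2 medians ranged from -0.98 to 0.49 without 1 replicate (0.49 without replicate 2), was 0.31 in the pooled list and -1.31 with summits within 500 bp of a TSS only. Its direction is thus not settled while genes with no region are left out. With such genes at the lowest signal, an alternative chosen after seeing the data, the difference of means was -0.83. The cause of these shifts was not tested. Depth is unknown, so the absence of a region at Sce or Scm sets no limit on binding there.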

Other observations

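Strong regions lay beside the PRC1 genes Psc and Pc, beyond the window used for assignment. Only the stretch between Psc and Su(z)2 and the 5 kb on the 3′ side of Pc, Sce and Scm were searched. The flanks of ph-p, ph-d and the PRC2 genes were not, so no comparison of the complexes can be drawn. On the 3′ side of Sce the IDR region ranked 4592, with Hsdl2 as the nearest gene. The 15506 bp between Psc and Su(z)2 held an IDR region at 2R:12985052-12985379, with an IDR signal of 1105 (rank 57) and ranks of 78, 57 and 52 in replicates 1, 2 and 3. Its summit lay 4221 bp upstream of Psc, 11286 bp upstream of Su(z)2 and 152 bp upstream of lncRNA:CR44339, and it outranked every region assigned to either gene. A second, weaker IDR region in the same gap (signal 161.9, rank 2764) lay 4845 bp upstream of Su(z)2. Beside the 3′ end of Pc, 1565 bp beyond the gene, an IDR region of signal 860.9 (rank 115; ranks 185, 70 and 100 in replicates 1, 2 and 3) had its summit 85 bp downstream of a TSS of CG11309. These regions were picked out after their values were seen, and which gene they act on was not tested.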
